A study of Mus musculus with 10 samples.

Results

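The 7 regulator genes Kmt2a, Klf6, Nfia, Skor1, Irx5, Irx3 and Crem encode proteins that act on transcription or on chromatin, and each was the nearest gene of 1 differentially methylated region (DMR) between sperm of the arsenic group and sperm of the control group. They are 7 of the 577 regions listed. They were selected as genes by name from a table in which every region had already been chosen by its measured methylation difference, so their differences are given as a description, with no test. The DNA came from sperm of 10 C3H/HeN males of the F1 generation, which were 17 to 19 weeks old. The arsenic group was 5 males whose dams drank water with sodium arsenite while pregnant, and the control group was 5 males of dams on plain tap water, with each male from a litter of its own. The assay was reduced representation bisulfite sequencing (RRBS), which cuts DNA at CCGG with MspI, keeps short fragments and reads unmethylated cytosines as thymines after bisulfite treatment. A hyperDMR had higher and a hypoDMR lower methylation in arsenic sperm. The table gives 1 value per region and group contrast, in percentage points of methylation, arsenic minus control, and per-animal levels were not used here. Thus no spread between animals can be given, the depth behind a region is known only as the minimum of 10 reads per CpG in each sample, and regions are not replicates of a treatment. The table gives differences and no levels, so the sperm label was not checked against markers.

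As background, the proteins fall into 3 kinds. KMT2A is a histone H3 lysine 4 methyltransferase that maintains Hox gene expression and binds unmethylated CpGs through a CXXC domain. KLF6, NFIA, IRX3, IRX5 and CREM bind DNA themselves, through zinc fingers, the nuclear factor I domain, homeodomains and a leucine zipper domain, whereas SKOR1 is a corepressor of the SKI family that is brought to DNA by other factors. CREM has a known role in the testis, where an activator form drives genes of haploid spermatids. In mature sperm, CpG-rich promoters are mostly unmethylated and most of the remaining genome is methylated.

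The sequences of 4 regions are shown because they hold the 3 hyperDMRs near a transcription start site (TSS) and the region with the largest difference of the 7. Each is the plus strand of the RefSeq GRCm38 assembly, 5′ to 3′, with CpGs in capitals, and a CpG cut by the region's edge is left in lower case. For Kmt2a the first 300 bases are printed, chr9:44879591-44879890, and for the others the whole region, namely chr13:5862640-5862853 for Klf6, chr4:97581962-97582054 for Nfia and chr9:63137962-63138078 for Skor1. Kmt2a and Skor1 are transcribed from the minus strand, Klf6 and Nfia from the plus strand.
Kmt2a: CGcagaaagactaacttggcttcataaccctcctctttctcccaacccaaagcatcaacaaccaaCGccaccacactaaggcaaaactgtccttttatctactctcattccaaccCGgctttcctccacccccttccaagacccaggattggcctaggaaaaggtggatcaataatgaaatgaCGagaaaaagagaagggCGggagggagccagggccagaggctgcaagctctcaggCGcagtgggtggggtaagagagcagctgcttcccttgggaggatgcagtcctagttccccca
Klf6: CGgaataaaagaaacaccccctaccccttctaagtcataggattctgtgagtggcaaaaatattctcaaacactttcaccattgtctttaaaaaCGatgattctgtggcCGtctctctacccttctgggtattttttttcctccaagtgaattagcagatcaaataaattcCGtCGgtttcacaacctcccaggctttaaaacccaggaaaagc
Nfia: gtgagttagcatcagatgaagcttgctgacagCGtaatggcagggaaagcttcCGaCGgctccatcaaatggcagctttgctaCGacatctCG
Skor1: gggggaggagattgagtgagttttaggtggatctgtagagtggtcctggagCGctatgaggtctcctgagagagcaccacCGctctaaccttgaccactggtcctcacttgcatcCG
The capitals show how thinly CpGs are spread in the Kmt2a and Klf6 regions, with long stretches that hold none, while the short Nfia region carries 5 complete CpGs in 93 bases.

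Of the 7 regions, 3 were hyperDMRs (Kmt2a, Klf6 and Nfia) and 4 were hypoDMRs (Skor1, Irx5, Irx3 and Crem). Among all listed regions 14.4% were hyperDMRs and 85.6% were hypoDMRs. The 3 hyperDMRs were also the 3 regions within 2000 bp of a TSS, and all 4 hypoDMRs lay farther away. Among all 42 regions within 2000 bp of a TSS, 23.8% were hyperDMRs. Without the regulator genes the count was 7 of 39 (17.9%). A position that close to a TSS was held by 3 of the 7 regulator regions and by 39 of 569 other regions (6.85%). With so few regions, and with genes picked by name after the results were known, these shares are counts and no more.

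**Figure D1:**
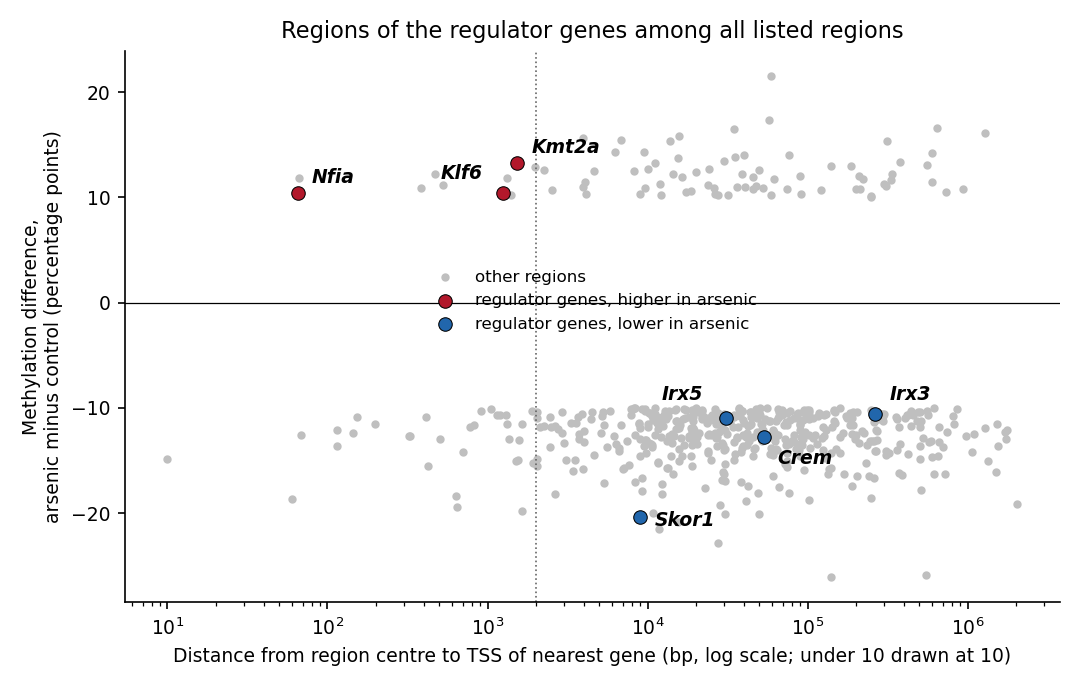
Methylation difference (arsenic minus control, percentage points) against the distance from the region's centre to the TSS of its nearest gene (bp, log scale). Each point is 1 region, grey for other regions and coloured for the regulator genes, and the dotted line marks 2000 bp: Nfia, Klf6 and Kmt2a lie above 0 and left of it, while Skor1, Irx5, Crem and Irx3 lie below 0 and right of it.

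The differences lay within the range of the other regions, and only that of Skor1 was larger than 13.2 points. The absolute difference of the 7 regions ranged from 10.4 to 20.4 percentage points with a median of 11.0, against a median of 12.2 in the other regions. The region of Nfia was the nearest of the 7 to the listing threshold of 10 points, and the smallest difference in the table was 10.03 points. Regions under that threshold are not in the table. All 7 regions contained a single differentially methylated cytosine (DMC), as did 365 of the 570 other regions (64.0%). All 7 listed at most 5 CpGs, as did 280 of 570 other regions (49.1%). The deposited q-value was above 0.01 in 2 of the 7 regions, those of Klf6 and Irx5, and in 71 of 570 other regions (12.5%). None of the 7 had a q-value of at most 0.001, which 232 of 570 other regions had (40.7%).

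**Figure D2:**
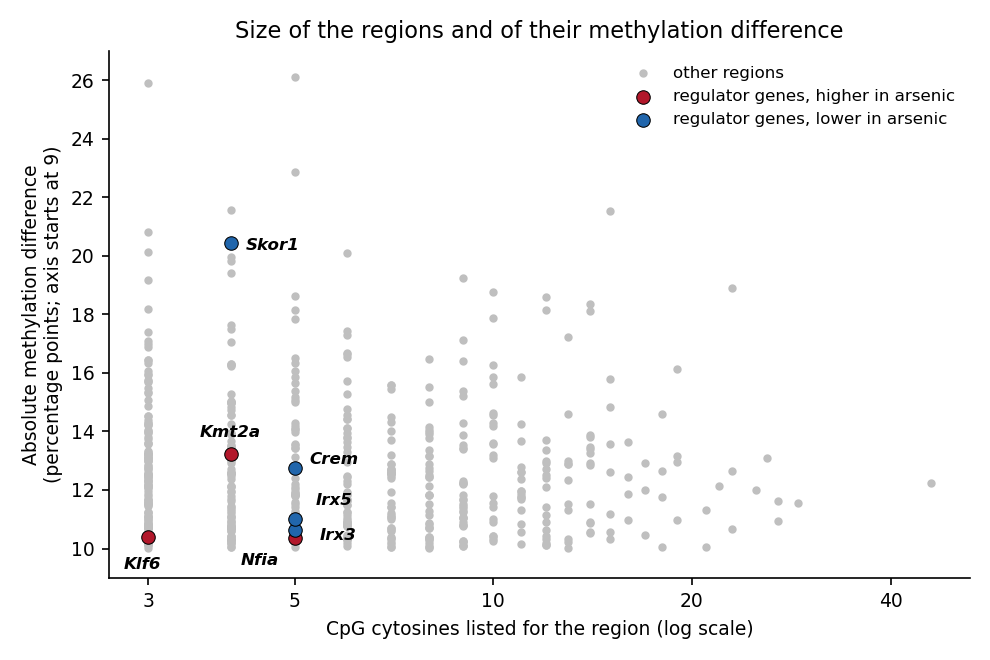
Absolute methylation difference (percentage points, axis from 9) against the number of CpG cytosines listed for each region (log scale), with regulator genes coloured by direction and other regions in grey. The regulator regions list 3 to 5 CpG cytosines, and Skor1 at 20.4 points stands above the remaining 6, which lie between 10.4 and 13.2 points.

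The listed CpGs are cytosines counted on each strand, not CpG pairs. In 228 of 569 other regions (40.1%) and in Crem the table lists more CpGs than the sequence has CpG pairs, while in no region does it list more than the CpG cytosines of both strands. On that scale Kmt2a had 4 listed cytosines of 14 in its region (28.6%) and Klf6 had 3 of 11 (27.3%). Nfia had 5 of 11 (45.5%), Skor1 4 of 7 (57.1%), Irx5 and Irx3 5 of 9 each (55.6%), and Crem 5 of 6 (83.3%). The median over the other regions was also 55.6%. The differences of Kmt2a and Klf6 therefore rest on under 30% of the CpG cytosines within their borders.

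Kmt2a had the largest difference of the 3 hyperDMRs, at 13.2 points, which ranked 21 of 83 hyperDMRs by size and 1 of 10 among hyperDMRs within 2000 bp of a TSS. Its region, chr9:44879591-44879909, lies in intron 1 of 35, with its centre 1524 bp from the TSS in the table. The first exon and the TSS lie in a 1895-bp CpG island, and the region sits 831 bp beyond the island's edge, inside the gene. Its 319 bases have a GC content of 53.6% and an observed over expected CpG ratio of 0.313, the measure of how far CpGs are depleted relative to base composition. On the opposite strand all 319 bases fall in exon 2 of Gm39326, a long non-coding RNA gene that runs antisense to Kmt2a. The Gm39326 transcripts over the region are all RefSeq models that are not among the curated ones. The neighbouring protein-coding genes are Ttc36, 76640 bp away, and Atp5l, 33339 bp away.

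Klf6 encodes a zinc finger factor made in many tissues. Its region was 10.4 points higher in arsenic sperm than in control sperm, rank 71 of 83 hyperDMRs. By q-value it ranked 573 of 577 listed regions, near the weak end of the table. The region, chr13:5862640-5862853, lies in intron 1 of 3 with its centre 1257 bp from the TSS. Its setting resembles that of Kmt2a: the TSS is inside a 983-bp CpG island, and the region lies 838 bp past the island within intron 1. The region itself has a GC content of 41.1%, the lowest of the 7, and an observed over expected ratio of 0.590. Klf6 is isolated, since the next protein-coding genes, Pitrm1 and Akr1e1, are 685269 and 1253476 bp from the region. The nearest annotated gene beside Klf6 is the long non-coding RNA gene 1700016G22Rik at 4548 bp.

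Nfia encodes a member of the nuclear factor I family, known for its part in glial development. Its hyperDMR had a difference of 10.4 points, rank 72 of 83, and was the only one of the 7 in an annotated promoter, a class that held 15 of 570 other regions. The centre lies 65 bp from the TSS. The region, chr4:97581962-97582054, falls wholly in exon 1 of 1 curated isoform and covers 15 bases of 5′ untranslated sequence followed by 78 coding bases, so the printed sequence crosses the start of translation. Relative to the TSS of the other curated isoforms the region's centre lies far upstream, at -195618 bp. Other RefSeq models, not among the curated ones, start 3896 bp upstream of the region and also hold it in exon 1, with 78 coding bases. In the GENCODE annotation of the same build, all 8 Nfia transcripts start at least 190680 bp past the region. The promoter class therefore rests on the curated RefSeq isoform. The region also lies in an intron of E130114P18Rik, a long non-coding RNA gene on the opposite strand. With 6.45 CpGs per 100 bp it was denser in CpGs than Kmt2a with 2.19 and Klf6 with 2.80, but no CpG island of at least 500 bp lay within 20000 bp. The density of a region counts every CpG with at least 1 base in it, so CpGs cut by the edge are included.

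**Figure D3:**
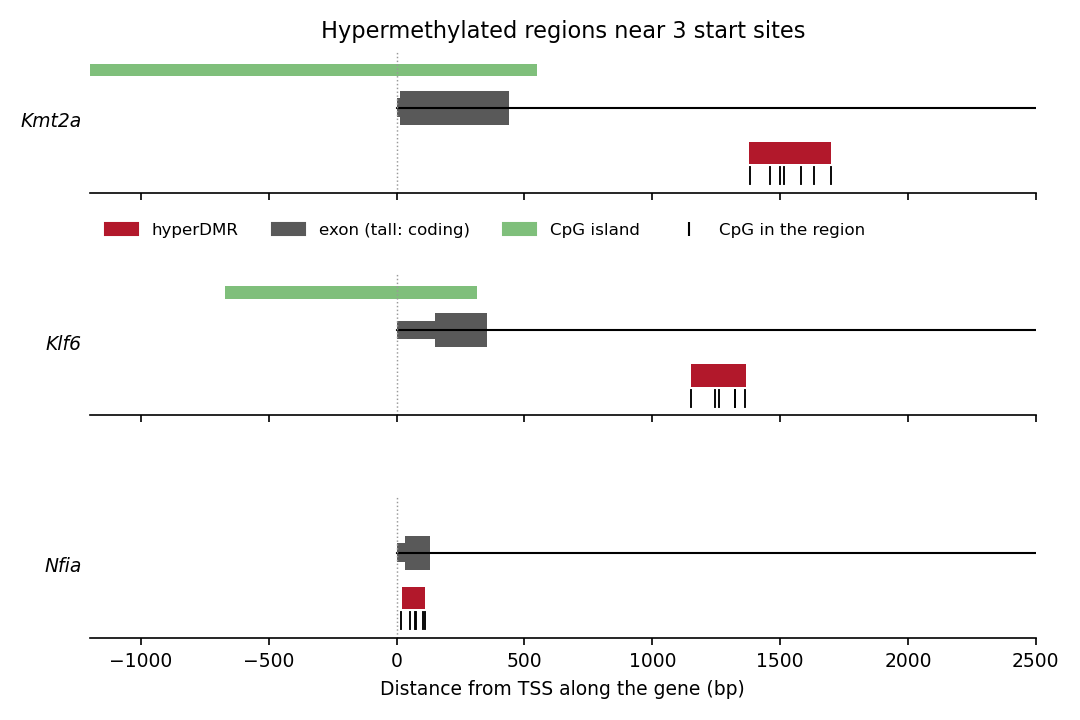
Maps of Kmt2a, Klf6 and Nfia drawn 5′ to 3′ along each gene, with distance from the TSS in bp, exons in grey (taller where coding), CpG islands of at least 500 bp in green, hyperDMRs in red and their CpGs as black ticks. The Kmt2a and Klf6 regions lie in intron 1 beyond the island at the TSS, and the Nfia region lies in exon 1 with no island drawn.

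Skor1 encodes the corepressor that partners LBX1 in the developing dorsal spinal cord and dampens bone morphogenetic protein signalling through SMADs. Its hypoDMR differed by -20.4 points, rank 6 of 494 hypoDMRs by size. The region, chr9:63137962-63138078, lies at the far end of the gene from its promoter. It lies 86 bp beyond the annotated 3′ end of Skor1, was classed as a transcription termination site, and has its centre 8960 bp from the nearest TSS. That class held 8 of 570 other regions. A 593-bp CpG island lies 347 bp from the region on the side of the gene and does not contain the TSS. The region has a GC content of 55.6% and an observed over expected ratio of 0.342. The next gene on the other side is the small nuclear RNA gene Gm25064 at 4573 bp, and the next protein-coding gene there is Pias1 at 157083 bp.

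Irx3 and Irx5 encode Iroquois homeodomain factors that pattern the nervous system, heart and limb, and together with Irx6 they form a cluster on chromosome 8. Both had hypoDMRs of close size, -10.6 points for Irx3 (rank 409 of 494) and -11.0 points for Irx5 (rank 354 of 494). By q-value the Irx5 region ranked 549 of 577. Each listed 5 CpGs and 1 DMC, and both were intergenic. The Irx5 region, chr8:92388598-92388814, lies 27142 bp past the 3′ end of Irx5 with its centre 30910 bp from the TSS, and the next gene, Irx6, is 285475 bp away.

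The Irx3 region, chr8:92063524-92063769, was assigned to Irx3 by a modest margin of distance. Its centre is 261992 bp upstream of the Irx3 TSS and 294150 bp from the Irx5 TSS, whereas those start sites are 556142 bp apart. The closest annotated genes on its sides are the small nuclear RNA gene Gm24254 at 23504 bp and the long non-coding RNA gene Crnde at 262262 bp. The regions of Irx3 and Irx5 are separated by 324828 bp, and 1 further region in the table lies within 1000000 bp of either, 886921 bp from that of Irx3. Its nearest gene is Aktip, and it was also a hypoDMR, with -12.8 points, 11 CpGs and 3 DMCs. No CpG island of at least 500 bp was found within 20000 bp of the Irx3 or the Irx5 region. Their GC contents were 46.7% and 44.2%, with 2.03 and 2.30 CpGs per 100 bp, below the median of 4.05 in the other regions.

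**Figure D4:**
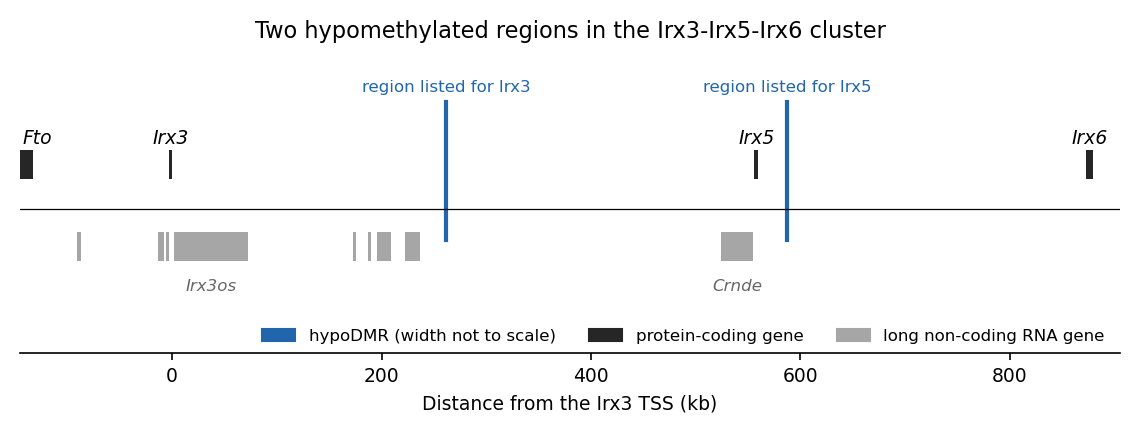
The Irx3, Irx5 and Irx6 cluster with distance from the Irx3 TSS in kb, protein-coding genes in black, long non-coding RNA genes in grey and the 2 hypoDMRs as blue bars whose width is not to scale. The region listed for Irx3 lies near the middle of the interval between Irx3 and Irx5, which holds no other protein-coding gene but several long non-coding RNA genes, and the region listed for Irx5 lies 27142 bp past the 3′ end of Irx5.

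Crem encodes the cAMP-responsive modulator described above, with activator and repressor forms made from several promoters. Its hypoDMR differed by -12.8 points, rank 198 of 494. The region of 33 bases on chromosome 18, at 3227373 to 3227405, lies 38949 bp past the 3′ end of the gene. The table's distance of 53743 bp is to the nearest curated TSS, and the farthest is 110241 bp away. It was the only regulator region annotated to a repeat element, an L1Md_F2 LINE, as were 255 of 570 other regions (44.7%) to any repeat. All of its bases are marked as repeat in the assembly. Such bases also made up 21.1% of the Irx3 region, 14.7% of Irx5, 12.1% of Klf6 and 6.9% of Kmt2a, with 0% in Nfia and Skor1. Their median share was 12.1% in the 7 regions, against 14.6% in the other regions. The Crem region holds 3 CpG pairs in 33 bases and has the highest GC content of the 7, at 69.7%. The next gene on the other side, the vomeronasal receptor gene Vmn1r238, is 103961 bp away.

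For none of the 7 regions did the 100 bp around the centre have a close copy in the assembly. After conversion in silico this window had a single placement in the genome with up to 3 mismatches allowed, Crem included. The same held for 415 of 569 other regions (72.9%). The windows of Crem and Nfia reach past their regions of 33 and 93 bases, so those bases were not placed alone. The median CpG density of the 7 regions was 2.80 per 100 bp, against 4.05 in the other regions. The genes were split around it: Nfia with 6.45 and Crem with 9.09 CpGs per 100 bp lay above 4.05, the other 5 lay below, and the means were 4.04 in the regulator regions and 4.57 in the other regions. The median observed over expected ratio was 0.383, against 0.520, and the median GC content was 51.6%, against 54.2%. The median of the listed width was 215 bp, against 140 bp. In the 7 regions the listed width exceeds the number of bases, as for Klf6 with 215 against 214. All 7 touched an MspI fragment of 40 to 300 bp, as did 562 of 569 other regions (98.8%).

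A CpG island of at least 500 bp lay within 2000 bp of 3 regions, those of Kmt2a, Klf6 and Skor1, against 40 of 569 other regions (7.03%). That island definition was chosen after the data were seen, and the order of the shares turns with the shorter islands of at least 200 bp, which lay within 2000 bp of 4 of the 7 regions (57.1%) and of 396 of 569 other regions (69.6%). None of the 7 regions overlapped an island of at least 500 bp, and 11 of the 569 other regions did. An island of at least 200 bp overlapped 3 of the 7 regions, those of Kmt2a, Nfia and Skor1, and 281 of 569 other regions (49.4%). The CpG density in 100-bp steps peaked at 16 CpGs in the Kmt2a window and at 12 in that of Klf6, in both cases away from the region and over the island at the TSS. It peaked at 10 in the Skor1 window. In the windows of Nfia, Crem, Irx5 and Irx3 the peaks were 5, 5, 4 and 3 CpGs. The average over the other regions peaked at the centre with 3.46 CpGs. An average over windows levels out peaks that lie off the centre, so it is not comparable with the peak of a single window.

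**Figure D5:**
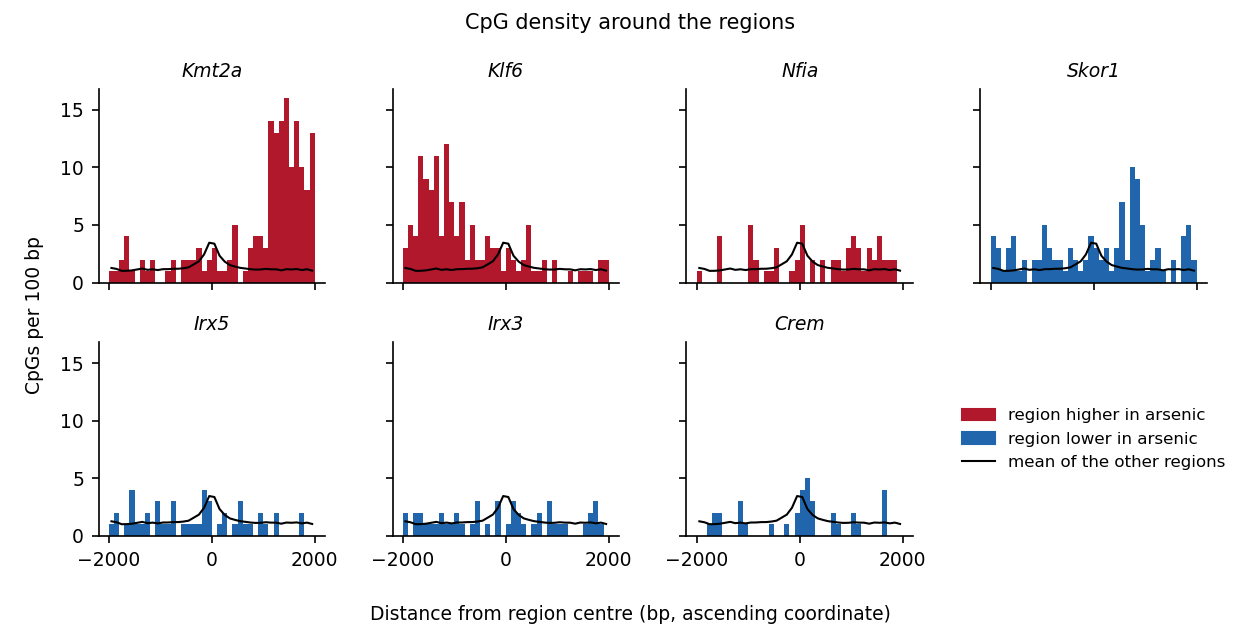
CpGs per 100 bp within 2000 bp of the centre of each regulator region (bars, red for higher and blue for lower methylation in arsenic sperm) and the mean over the other regions (black line). The Kmt2a, Klf6 and Skor1 windows hold a dense block to one side, with peaks of 16, 12 and 10, while the Nfia, Irx5, Irx3 and Crem windows stay at 5 or below.

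Related genes were read from lists of 6 families. They were histone H3 lysine 4 methyltransferase complexes with other chromatin factors, Krueppel-like factors and nuclear factor I. The others were Iroquois factors, the SKI family with SMADs, and cAMP response factors with coactivators. The lists hold 73 genes, all in the RefSeq annotation. Besides the 7 genes described here, 0 of the other 66 was the nearest gene of a region, beside 539 of 26180 genes with a curated transcript (2.06%), so a count this small says little about the families. By family, 1 of 15 genes of the methyltransferase list (Kmt2a), 1 of 17 Krueppel-like factors (Klf6) and 1 of 4 nuclear factor I genes (Nfia) had a region. So did 2 of 6 Iroquois genes (Irx3 and Irx5), 1 of 14 SKI and SMAD genes (Skor1) and 1 of 17 cAMP response genes (Crem). The families were built around these genes, so 1 or more per family is fixed by the choice. The next listed region was 324829 bp away for the Iroquois pair, 1125408 bp from that of Nfia, 1507115 bp from Klf6, 2383162 bp from Skor1, 5542073 bp from Kmt2a and 6268206 bp from Crem. The median over the 7 regions was 1507115 bp, against 1057493 bp over the other regions, so wide spacing is common in the table.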

How the data were processed

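The members and lists were chosen with earlier results of these data known. Per the submitters' processing notes, Trim Galore, Bismark, methylKit and HOMER were used with build mm10. The authors kept CpGs read at least 10 times in all samples, called DMCs by logistic regression and joined CpGs to regions with eDMR. A region needed at least 3 CpGs, at least 1 DMC and a difference above 10 points that was statistically significant between the groups. The deposited table holds, for each region, the mean methylation difference, CpG and DMC numbers, width, position, HOMER annotation and a p-value with its q-value, which are the authors' own comparison. No p-value or q-value of a region is printed here, and q-values served only for ranks, counts and 1 alternative. The sign was read as arsenic minus control because negative rows are the majority and the study names hypoDMRs as the majority.

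All rows whose nearest gene was one of the 7 genes were taken. The genes named are these, genes of the family lists with a region, genes overlapping a region, the nearest genes on either side and the nearest genes of other regions within 1000000 bp. Sequence, CpG cytosines on both strands, MspI fragments and gene structure came from the GRCm38.p6 RefSeq assembly, the same build as mm10, with GENCODE for Nfia. The first base of each listed region on the 21 chromosomes was a base of a CpG, so coordinates are counted from 1. One region on an unplaced contig was left out where sequence was needed. CpG islands were at least 500 bp with 55% GC and a ratio of 0.65. For placements, both strands were converted in silico. Analyses used Python 3.11.15, numpy 2.4.6, pandas 2.3.3 and numba 0.67.0. Only the count of placements, the base and CpG counts and the CpG island search were tested on made-up sequences. Depth behind single regions is unknown, which limits the precision of every difference. The alternatives were stricter thresholds, means, other distances and windows, and shorter CpG islands.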

Additional observations from a re-analysis of the deposited data

How the results depend on the processing

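The counts by direction depended on the listing thresholds. The 3 hyperDMRs became 1 at an absolute difference of at least 12 points (Kmt2a) and 1 at no fewer than 5 CpGs (Nfia). The 4 hypoDMRs became 2 at 12 points (Skor1 and Crem). A difference of at least 12 points was reached by 3 of the 7 regions and by 297 of 570 other regions (52.1%). That share was not split by direction. Over the whole table the median absolute difference was 11.8 points in the 83 hyperDMRs and 12.3 points in the 494 hypoDMRs. The share with 5 CpGs or more was not computed for the other regions, which listed a median of 6 CpGs. No hyperDMR and no hypoDMR of the regulator genes was left, 0 of each, when 2 or more DMCs were asked for (other regions 205 of 570, 36.0%) or when the q-value limit was set to 0.001 (other regions 232 of 570, 40.7%). Another 22 alternatives were classed as unchanged, against the spread between regions or 1.5 times the count. They covered hypoDMRs with 5 CpGs or more, distance to the TSS, nearest gene, means, repeats, sequence windows, placements, islands and family lists. In a 1000-bp window, however, the median CpG density was 1.5 per 100 bp, below the lowest of the 7 regions themselves (2.03). The median observed over expected ratio there was 0.295, also below their lowest (0.313). In that window the median density of the other regions was 2 CpGs per 100 bp. The island definition was chosen after seeing the data: with islands of at least 200 bp, 50% GC and a ratio of 0.6, 4 of the 7 regions lay within 2000 bp of one, against 396 of 569 other regions (69.6%). No paired analysis was possible because the table holds no values of single samples and no result comes from a test. For the same reason no replicate could be left out in turn. Coverage per region is not known beyond its minimum.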
